A study of Mus musculus with 2 samples.

Results

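N297A, an antibody to mouse GITR that the deposited annotation calls agonist and Fc-null, was compared with the control that it names Untreated. Members were the cells whose deposited treatment was N297A or Untreated. They numbered 9480 of 19210 annotated cells: 4702 from 3 N297A mice and 4778 from 3 Untreated mice. Each mouse was a run of sorted barcodes in the annotation, which does not name animals. All mice carried human Fcγ receptors and an MC38 tumour, grown from a transplantable mouse colon adenocarcinoma line under the skin. The N297A mice received 100 µg of an anti-mouse GITR antibody with a human IgG1 constant region in 2 intraperitoneal injections 3 days apart. The annotation's Untreated mice were taken to be the PBS controls that the series' design text names, so antibody as such and GITR binding cannot be told apart here. Leukocytes were sorted for CD45 on day 4 after treatment and read with a 3′ droplet assay.

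GITR, the product of Tnfrsf18, belongs to the TNF receptor family and gives T cells a costimulatory signal. It is abundant on regulatory T cells (Tregs) and is induced on activated CD8 and CD4 T cells. Antibodies to it can act in different ways: by signalling through GITR, or by marking GITR-bearing cells for killing and engulfment by cells with Fcγ receptors. The N297A change removes the attachment site of the Fc glycan, which weakens binding to Fcγ receptors. A comparison of N297A with controls therefore asks what GITR binding does when Fc engagement is reduced.

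N297A mice held 1490, 1421 and 1791 annotated cells and Untreated mice 1485, 1525 and 1768. The first 2 mice of each group were in library 1 and the third in library 2. Counts were analysed for library 2 alone, so cell shares rest on 3 mice a side and expression on 1 mouse a side. Hashtags matched the run in 1791 of 1791 cells of the N297A mouse and 1768 of 1768 of the Untreated mouse. Their cells had medians of 10913 and 12451 unique molecular identifiers (UMIs), with mitochondrial medians of 1.61% and 1.80%. The libraries shared 34 barcodes. A further 565 and 496 barcodes with at least 500 UMIs carried these mice's hashtags but had no annotation. They equalled 24.0% and 21.9% of each mouse's barcodes, and they could change shares. Shares of sorted cells do not give the number of cells per tumour. Named types expressed their markers: all 10 macrophage, 8 CD8 T cell and 9 NK markers passed the minimum in their own class. Passing was not particular to the class: all 10 macrophage markers also passed in monocytes and 5 of 10 in CD8 T cells. Foxp3, the defining transcription factor of Tregs, had a UMI in 6 of 8 and 7 of 11 library 2 Tregs.

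In no cell type did the difference in share between N297A and Untreated mice pass the test. Macrophages and monocytes made up most cells in both groups. Macrophages were 41.3%, 49.1% and 47.3% of cells in N297A mice and 42.4%, 45.4% and 53.3% in Untreated mice. Monocytes were 29.3%, 27.5% and 36.2% against 28.2%, 37.0% and 27.2%. The mice of the groups were interleaved for both types. edgeR's quasi-likelihood test on cell counts, with treatment and library as terms over 12 mice, called 0 of 10 types higher (0% called) and 0 lower (0%). The count at an unadjusted p under 0.05 was also 0, and DESeq2 called 0. The fold intervals show what these mice could resolve. For macrophages the 95% interval of the N297A to Untreated ratio was 0.774 to 1.24, and for monocytes 0.734 to 1.36. For the rarer CD8 T cells it was 0.445 to 1.82. In none of the 10 types did the groups separate completely (0% above, 0% below).

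**Figure D1:**
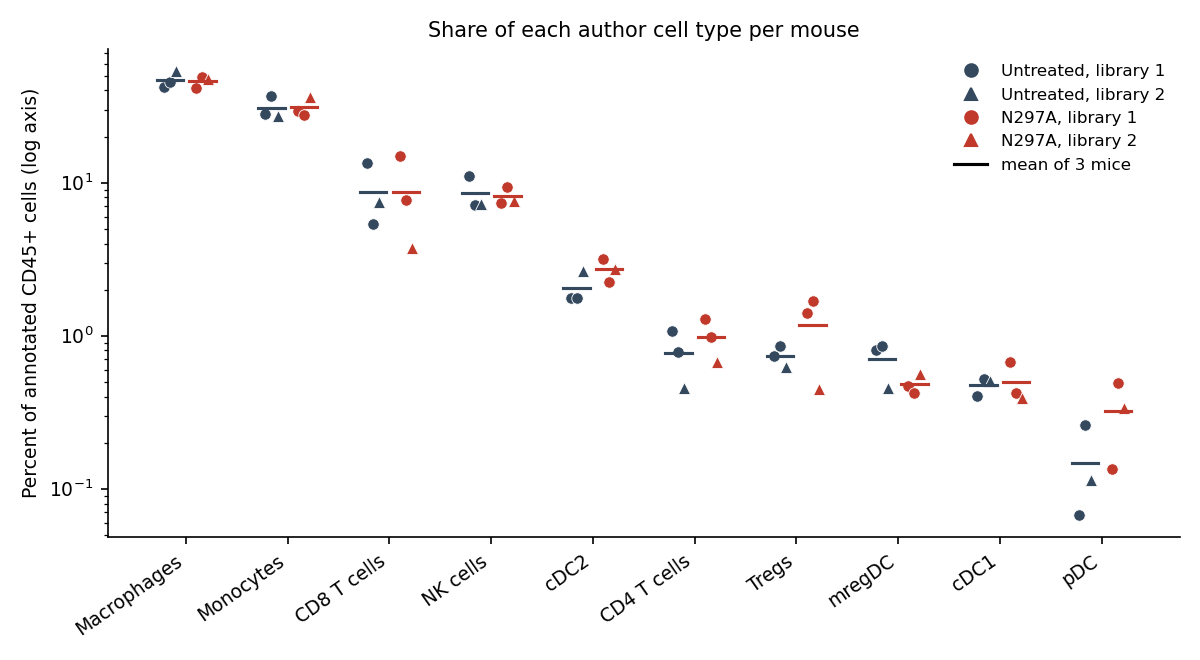
Percent of annotated cells in each of the 10 deposited types (y axis, log scale) for each N297A and Untreated mouse, with circles for library 1, triangles for library 2 and lines for means of 3 mice. The mice of both groups overlap in every type; N297A Tregs are highest in the library 1 mice and lowest in the library 2 mouse.

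Tregs were the type of first interest, since they carry the most GITR. They numbered 21, 24 and 8 cells in N297A mice and 11, 13 and 11 in Untreated mice. As shares these were 1.41%, 1.69% and 0.447% against 0.741%, 0.852% and 0.622%. Both N297A mice of library 1 lay above every Untreated mouse, and the N297A mouse of library 2 below every one. The fitted difference was 0.57 ± 0.30 (SE) on the log2 scale, with a fold interval of 0.955 to 2.30 and an adjusted p of 0.330 in edgeR's test. In library 1 alone it was 0.95 (adjusted p = 0.202). Without Untreated replicate 3 it was 0.93 (adjusted p = 0.0734), and without Untreated replicate 1 it was 0.37 (adjusted p = 0.649).

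The Treg share was also set against other T cells. Tregs per 100 CD4 and Treg cells were 52.5, 63.2 and 40.0 in N297A mice and 40.7, 52.0 and 57.9 in Untreated mice. The difference in means of 1.67 did not pass an exact two-sided permutation test (p = 0.9; adjusted p = 1). CD8 T cells per Treg were 10.5, 4.54 and 8.38 in N297A mice against 18.1, 6.31 and 12.0 in Untreated mice. Within library 1 the ratio differed more between mice of 1 group than between groups. The log2 difference of -0.59 had an exact permutation p of 0.4 (adjusted p = 1). Lymphoid cells, the sum of CD8, CD4, Treg and NK cells, were 19.0% ± 6.29 (SD, n = 3) in N297A and 18.8% ± 6.61 in Untreated mice by the same exact test (p = 1). Values were adjusted over 5 such tests, and with 20 arrangements of the mice none could go below 0.1.

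**Figure D2:**
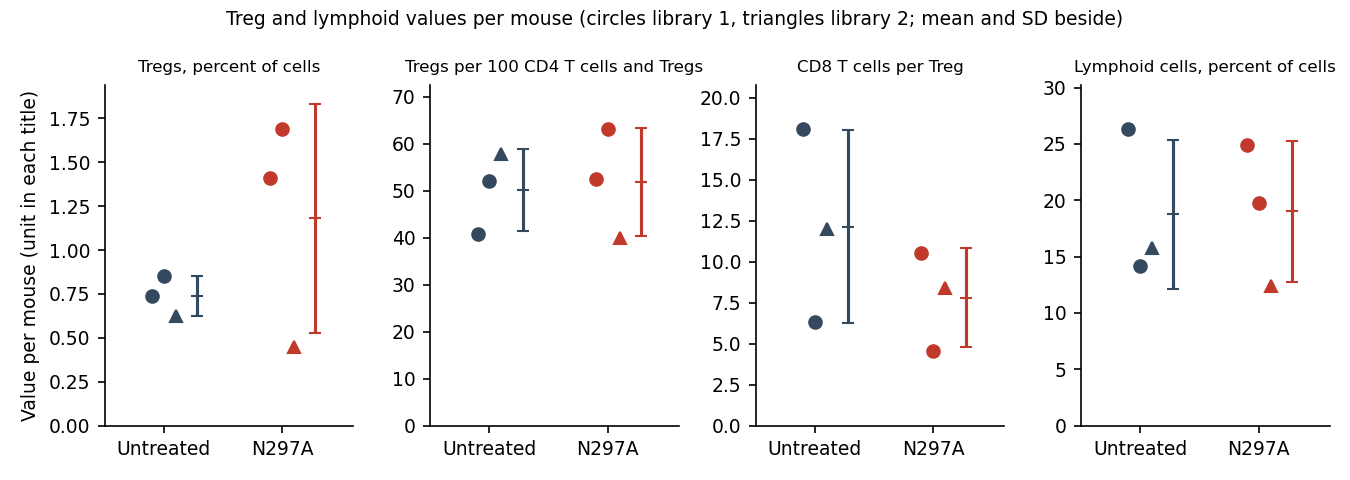
Treg percent of annotated cells, Tregs per 100 CD4 and Treg cells, CD8 T cells per Treg and lymphoid percent (y axes) for each mouse, circles for library 1 and triangles for library 2; bars beside them are mean ± SD of 3 mice. The groups overlap in each panel.

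CD4 T cells outside the Treg label were 1.28%, 0.985% and 0.670% in N297A mice and 1.08%, 0.787% and 0.452% in Untreated mice. Within each library the N297A mean was higher, but the groups overlapped (log2 0.36 ± 0.30, fold interval 0.828 to 1.98, edgeR adjusted p = 0.541). CD8 T cells varied most among the abundant types. They were 14.8%, 7.67% and 3.74% of N297A cells and 13.4%, 5.38% and 7.47% of Untreated cells. N297A mice alone thus ranged from 3.74% to 14.8% (log2 difference between groups -0.15 ± 0.45). NK cells, innate lymphocytes that kill without antigen receptors, were 7.38%, 9.43% and 7.54% against 11.1%, 7.15% and 7.24% (log2 -0.06 ± 0.28). CD8 T cells per NK cell, a ratio added after the data were seen, were 2.01, 0.813 and 0.496 against 1.21, 0.752 and 1.03 (exact permutation p = 1).

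Dendritic cells take up antigen and present it to T cells, and the annotation splits them into 4 types. cDC2, the conventional subset that mainly primes CD4 T cells, were 3.15%, 2.25% and 2.74% in N297A mice against 1.75%, 1.77% and 2.66%. The groups overlapped through the Untreated mouse of library 2 (log2 0.40 ± 0.23, fold interval 0.943 to 1.85, edgeR adjusted p = 0.330). mregDC, mature dendritic cells that express Ccr7, were 0.470%, 0.422% and 0.558% against 0.808%, 0.852% and 0.452% (log2 -0.48 ± 0.35). Plasmacytoid dendritic cells (pDC), known for type I interferon production, numbered 2, 7 and 6 cells against 1, 4 and 2. Their log2 difference of 1.08 was the highest of any type, with a fold interval of 0.897 to 5.01. cDC1, the subset specialised in cross-presentation to CD8 T cells, differed by 0.02 ± 0.35. All dendritic cells together, a sum added after the data were seen, were 4.43%, 3.59% and 4.02% against 3.03%, 3.41% and 3.73% (exact permutation p = 0.2). CD4 T cells, cDC2 and pDC were the 3 types that lay higher in N297A mice within both libraries; 0 types lay lower in both and 7 differed between libraries.

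The same fit gives a scale for the Treg result. For the GA-aFuc antibody, called agonist and Fc-enhanced, edgeR's test called 1 of 10 types higher than Untreated (10% called) and 1 lower (10%). Tregs differed from Untreated by -2.12 ± 0.45 (log2; adjusted p = 0.00270). For the GITR/Syn GA-aFuc antibody, called non-agonist and Fc-enhanced, 0 types were higher (0%) and 1 was lower (10%). Tregs differed there by -2.42 ± 0.46 (adjusted p = 0.000982). These comparisons share the Untreated mice with that of N297A. The Treg fold interval for N297A began at 0.955, while that for GA-aFuc ended at 0.447.

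At the level of the 58 deposited clusters, edgeR's test called 0 clusters higher in N297A mice (0% called) and 0 lower (0%). No cluster had an unadjusted p under 0.05 in that test, and DESeq2 called 0. The lowest p was 0.0574 (adjusted p = 0.995). Of the 58 fitted log2 differences 29 were above 0 and 29 below, from -0.49 to 1.08. The median fold interval reached 1.65-fold to either side of the estimate. Library itself, tested in the same fit, changed 0 of 58 clusters (0% called). Its lowest p was in Treg cluster 50, which differed by -1.16 on the log2 scale in library 2 (adjusted p = 0.0937).

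**Figure D3:**
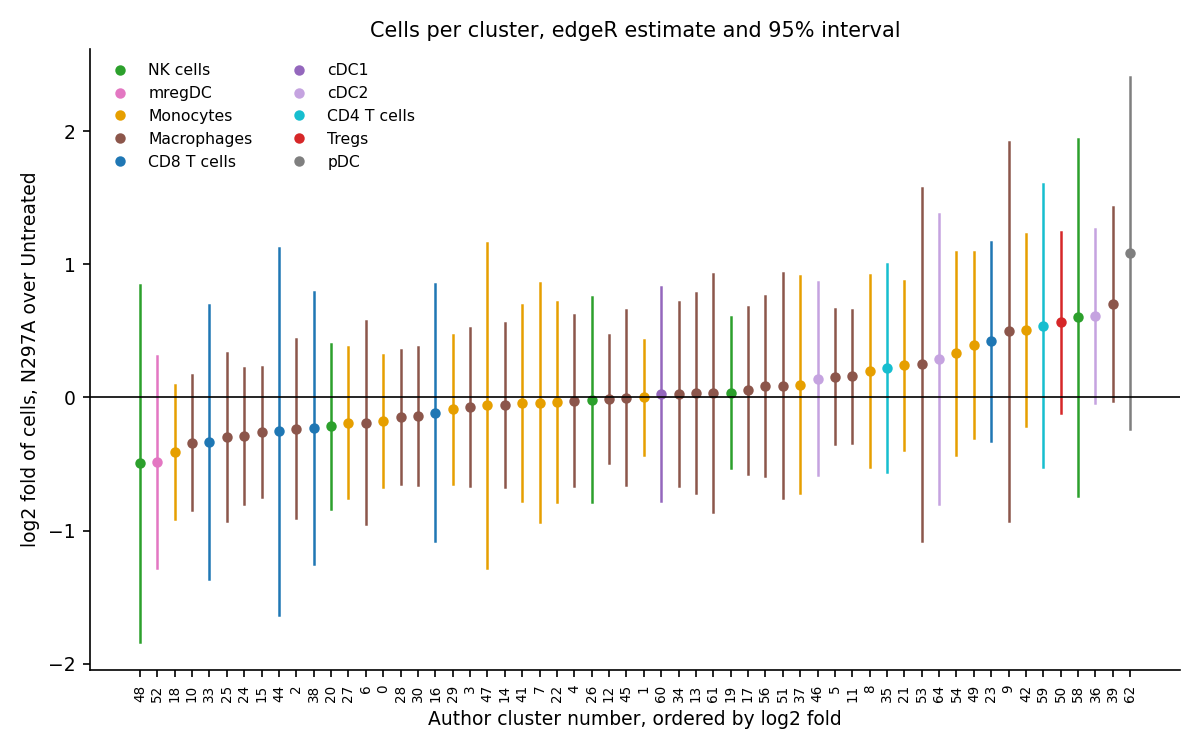
Fitted log2 difference in cell share, N297A over Untreated (y axis), for each of the 58 deposited clusters in rising order (x axis), coloured by type; lines are 95% intervals. Every interval crosses 0.

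The 6 clusters with the highest differences came from different types. They were named by the genes that led them in library 2. Cluster 62 is the pDC described above (1.08 ± 0.61). Cluster 39 held macrophages led by Chil3, the metallothionein Mt2, the chemokine Cxcl3, the growth factor Hbegf and the hypoxia genes Ero1a, Egln3 and Ndrg1. It made up 1.41%, 1.13% and 1.73% of N297A cells and 0.673%, 1.11% and 0.848% of Untreated cells (0.70 ± 0.34, fold interval 0.98 to 2.70). All 3 N297A mice lay above all 3 Untreated mice, by 1.13% against 1.11% at the nearest. Cluster 36, cDC2 with Cd209a, Clec10a and the monocyte genes Ly6c2 and Ccr2, made up 1.74%, 1.55% and 1.23% against 0.943%, 0.590% and 1.41% (0.61 ± 0.30). NK cluster 58, led by the cell cycle genes Top2a, Mki67 and Birc5, was at 0.537%, 0.844% and 0.558% against 0.741%, 0.0656% and 0.452% (0.60 ± 0.62). The remaining clusters of this group were Treg cluster 50, led by Tnfrsf4, Foxp3, Ikzf2, Tnfrsf18 and Ctla4 (0.56 ± 0.32), and CD4 cluster 59, led by the cytokine genes Ccl1, Csf2, Lta and Ifng (0.54 ± 0.49).

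At the other end, NK cluster 48, with Cd3g and Gzmg, differed by -0.49 ± 0.62 and spread from 0.525% to 1.62% among Untreated mice. mregDC cluster 52 followed (-0.48 ± 0.37). Monocyte cluster 18, led by Ifitm1, Klrb1b, the decoy receptor Il1r2 and H2-DMb1, made up 1.88%, 1.83% and 2.12% of N297A cells and 2.69%, 2.62% and 2.43% of Untreated cells (-0.41 ± 0.24). Macrophage cluster 10, led by the chemokine genes Ccl3, Ccl4 and Ccl7 with Tnf and Egr1, made up 1.95%, 2.53% and 2.79% against 2.96%, 3.28% and 2.94% (-0.34 ± 0.23). CD8 cluster 33, with the granzyme genes Gzmd, Gzmc and Gzmf, was at 2.95%, 1.48% and 0.614% against 3.43%, 1.18% and 1.36% (-0.34 ± 0.47). Macrophage cluster 25, led by Cxcl14, Ifi27l2a and C1q genes, was at 1.54%, 1.55% and 1.68% against 1.75%, 1.70% and 2.43% (-0.30 ± 0.29). Clusters 10, 18 and 25 were the 3 of 58 whose N297A mice all lay below the Untreated mice (5.17%), and cluster 39 was the 1 that lay above (1.72%). None of these 4 passed the test.

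None of the other T cell clusters passed the test. CD8 cluster 23, led by Tcf7, Lef1 and S1pr1, genes of naive and memory cells, was at 3.22%, 1.41% and 0.949% against 1.89%, 1.11% and 1.02% (0.42 ± 0.35). CD8 cluster 16, with the checkpoint receptor Pdcd1 and Cxcr6, differed by -0.12. CD8 cluster 38, led by cell cycle genes, differed by -0.23, and CD8 cluster 44, with Hspa1a, Cxcl10 and Ifit3, by -0.25. CD4 cluster 35, led by Cd40lg, Cd4 and Icos, was at 0.671%, 0.563% and 0.391% against 0.673%, 0.459% and 0.283% (0.22). Each had an adjusted p of 0.995. Of 24 macrophage clusters 11 were above 0, as were 7 of 15 monocyte clusters and 3 of 3 cDC2 clusters.

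Shares within a type separate a shift inside the type from a change of its total. Over the 54 clusters of types with several clusters, edgeR's test called 0 higher (0%) and 0 lower (0%), and 1 had an unadjusted p under 0.05. That was macrophage cluster 39 as a share of macrophages, chosen here for its p (log2 0.75, fold interval 1.06 to 2.66, adjusted p = 0.979). DESeq2 called 0. The groups did not overlap for 7 of the 54 clusters as a share of their type, a description with no test. N297A mice lay above in clusters 11, 49 and 58 and below in clusters 0, 18, 24 and 25. As shares of all cells, 1.72% of the 58 clusters lay above and 5.17% below. Among these, monocyte cluster 49, led by Rsad2 and Ifit genes of the interferon response, held 4.12%, 4.09% and 3.39% of N297A monocytes and 2.86%, 3.19% and 2.70% of Untreated monocytes. Monocyte cluster 0, with Inhba, Nos2 and Mmp12, held 9.61%, 10.5% and 9.71% against 10.7%, 10.6% and 12.5%.

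Whole cluster profiles were as far apart within a group as between groups. The share of cells that would have to move to other clusters to make 2 mice alike was 12.3% to 18.3% for N297A against Untreated mice of the same library (median 14.8%). It was 13.8% between the N297A mice of library 1 and 16.7% between the Untreated mice of library 1. Of 58 clusters 11 lay higher and 7 lower in N297A mice in both libraries, and 40 differed in direction.

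Expression was described in library 2 only, for 1 N297A and 1 Untreated mouse, so no test or p applies. UMIs were summed per mouse and class and scaled to the class's total of mouse UMIs (CPM). Intervals cover counting error only. The pairs of mice with the same treatment in library 2, GA-aFuc and GITR/Syn GA-aFuc, show how far 2 mice of 1 treatment lie apart. Each of those pairs also differed in sex-linked RNA: Xist was at 570 and 555 CPM in 1 mouse of each pair and at 1.93 and 1.99 in the other. The N297A and Untreated mice were alike in this, at 1.69 and 1.65 CPM.

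Fewer genes differed between the N297A and the Untreated mouse than within most same-treatment pairs. In macrophages 11 of 6263 genes were past 2-fold higher (0.176%) and 44 lower (0.703%), against 102 and 52 in the GA-aFuc and GITR/Syn GA-aFuc pairs. In monocytes 5 of 5908 were higher (0.0846%) and 27 lower (0.457%), against 54 and 33 in the pairs. NK cells had 31 of 5939 higher (0.522%) and 24 lower (0.404%), against 166 and 160. CD8 T cells had 120 of 6082 higher (1.97%) and 73 lower (1.2%), against 124 and 438. Dendritic cells had 125 of 5817 higher (2.15%) and 80 lower (1.38%), against 299 and 119. CD8 counts came from 67 and 132 cells and dendritic counts from 72 and 66, while macrophages had 848 and 942. Depth was unequal: NK counts came from 135 and 128 cells here, but from 125 and 49 in the GA-aFuc pair and 93 and 74 in the GITR/Syn GA-aFuc pair. CD8 counts of the pairs came from 146 and 63 and from 66 and 68 cells. The UMI minimum was set on the N297A and Untreated mice only, so the mice of the pairs met no such minimum. Sex-linked genes were kept in all counts, and only the pairs differed in sex-linked RNA. The part of depth, of this minimum or of sex in these counts was not tested.

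**Figure D4:**
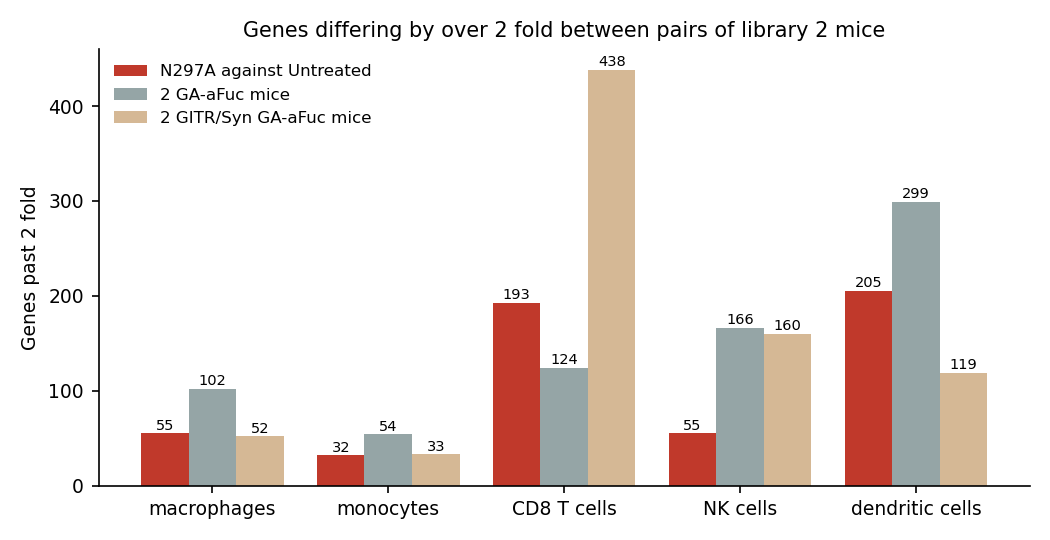
Number of genes past 2-fold in either direction (y axis) in 5 cell classes, for the N297A against the Untreated mouse and for the same-treatment pairs of mice. The N297A comparison lies below both pairs in monocytes and NK cells and between them in the other classes.

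The antibody's target was read where the labels placed it. Tnfrsf18 was highest in Tregs, at 1032 CPM in the N297A mouse (71 UMIs in 8 cells) and 695 in the Untreated mouse (82 UMIs in 11 cells). CD8 T cells held 225 and 274 CPM and NK cells 109 and 96.3. CD4 T cells held 607 and 189, from 12 and 8 cells. Monocytes and macrophages held at most 6.01 CPM. Tnfsf18, the GITR ligand, had 8 and 10 UMIs over all cells of these mice. Tregs of the N297A mouse had 33 Foxp3 UMIs and those of the Untreated mouse 19. Human FCGR3B stood at 916 and 2094 CPM in these Tregs beside 3233 and 3658 in macrophages. In Tregs 1 cell held 59 of its 63 UMIs in the N297A mouse and 1 held 86 of 247 in the Untreated mouse. The part of FCGR3B-bearing cells in the other Treg values was not tested. Of the human receptors in macrophages, FCGR1A was at 236 and 309 CPM, FCGR2A at 1044 and 986 and the inhibitory FCGR2B at 510 and 400. FCGR3A (344 and 376) and FCGR3B are near-identical, so reads may be split between them.

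In macrophages and monocytes, genes of the interferon γ response and of MHC class II were lower in the N297A mouse than in the Untreated mouse. Interferon γ, made by T and NK cells, acts on macrophages to induce guanylate-binding proteins, T cell-attracting chemokines and the MHC class II activator Ciita. Of 16 listed response genes 14 passed the minimum in macrophages; 9 were past 2-fold lower and 0 past 2-fold higher, beside 0.703% and 0.176% of all genes. Their median log2 difference was -1.34, beside -0.01 over all genes and 0.73 and 0.36 within the same-treatment pairs. All 16 listed genes summed to 2090 CPM in the N297A mouse, 5107 in the Untreated mouse and 2548 to 4726 in the other 4 mice of the library. The N297A mouse was the lowest of the 6 mice for 12 of the 14 genes, and the Untreated mouse the highest for 6.

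Gbp2b, a guanylate-binding protein, was at 10.6 CPM in N297A macrophages and 102 in Untreated macrophages (log2 -3.26, counting interval -3.53 to -3.01). In the other 4 mice it lay at 32.4 to 131. Cxcl9, a chemokine for CXCR3-bearing T cells, was at 293 and 1155 CPM, with the other mice at 272 to 855. Ciita was at 17.3 and 57.7 (28.8 to 61.8 in the others) and the immunity-related GTPase Iigp1 at 225 and 674 (364 to 641). Serpina3g, a serine protease inhibitor, was at 32.5 and 148 (35.1 to 126), and Dnase1l3, a secreted DNase, at 20.7 and 73.3. For each of these 6 genes except Cxcl9 the N297A mouse lay below the other 4 mice, and the Untreated mouse lay within or above their range.

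MHC class II genes, which present peptides to CD4 T cells, showed the same order. Of 11 listed genes 8 passed the minimum in macrophages, 5 were past 2-fold lower (0.703% of all genes were) and 0 higher (0.176%), with a median of -1.32 (0.39 and 0.65 in the pairs). H2-Eb1 was at 1255 and 3368 CPM, H2-Aa at 1216 and 3150 and H2-Ab1 at 1478 and 3784. The sum over all 11 listed genes was 11361 CPM in N297A macrophages and 23993 CPM in Untreated macrophages, below and above the other mice (13190 to 21424). Ciita was counted in both the response and the MHC class II list. Cd274, which encodes PD-L1 and was listed with both the response and the maturation genes, was at 74.9 and 186 CPM (171 to 247). MHC class I genes had a median of -0.41 with 0 of 11 past 2-fold. Cell type markers also differed in these macrophages. The 10 macrophage markers had a median of -0.12 and summed to 22137 CPM against 27427 (18298 to 26898 in the others). Of 10 monocyte markers 6 passed the minimum, and all 6 were above 0 (median 0.38). The part of these markers in the values above was not tested.

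**Figure D5:**
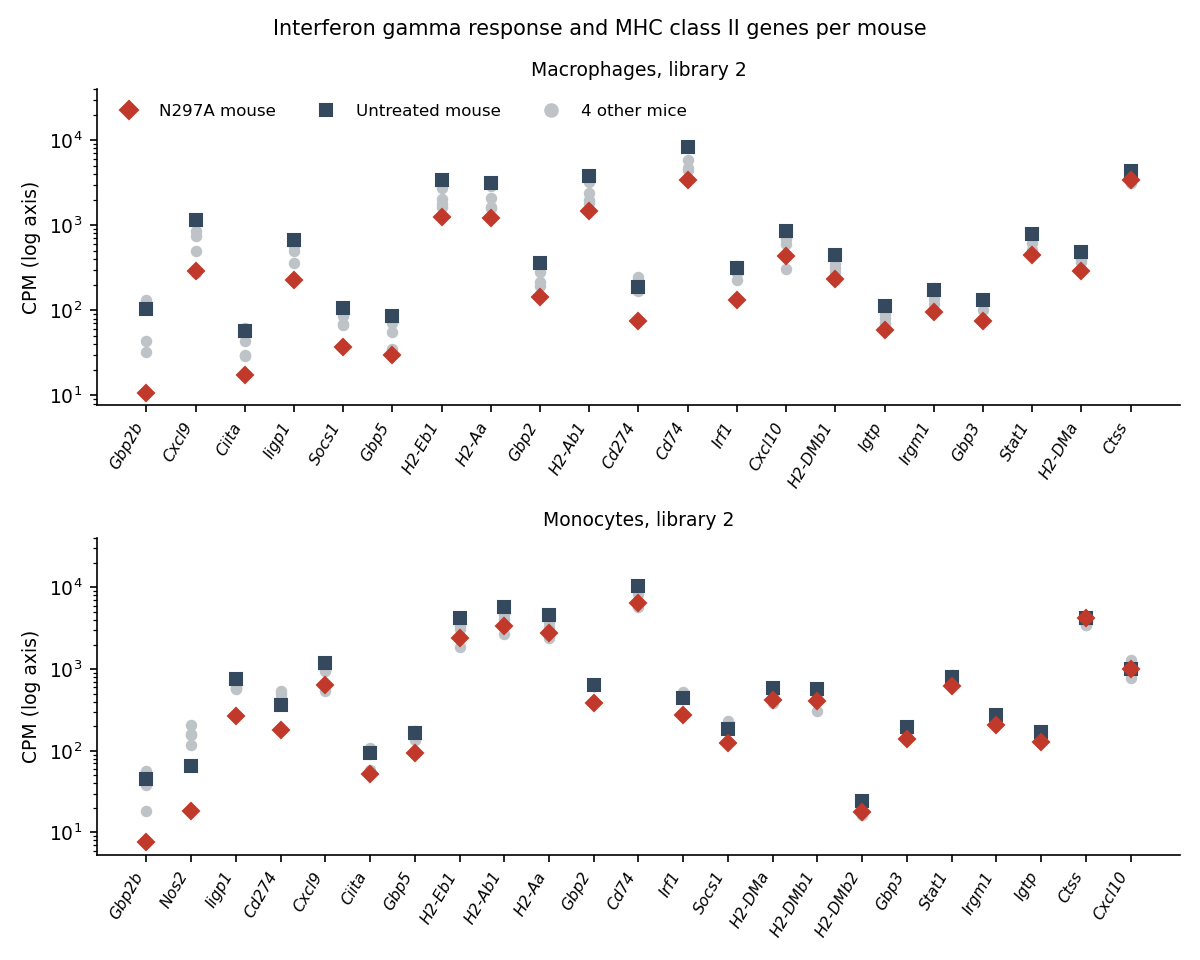
CPM (log scale, y axis) of interferon γ response and MHC class II genes in macrophages (top) and monocytes (bottom) of the 6 mice of library 2; diamonds are N297A, squares Untreated and grey circles the other 4 mice. In macrophages the N297A mouse is lowest for 12 of 14 response genes and 6 of 8 MHC class II genes. The Untreated mouse is highest for 6 and 7 of these. In monocytes the N297A mouse is lowest for 13 of 15 response genes and 1 of 9 MHC class II genes. The Untreated mouse is highest there for 4 and 7.

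Monocytes followed with smaller differences. Of 15 response genes tested 4 were past 2-fold lower, beside 0.457% of all genes, and the median was -0.73. The N297A mouse was lowest of the 6 for 13 of them. Gbp2b was at 7.68 and 44.6 CPM (18.1 to 57.2 in the others) and Cd274 at 179 and 359, both below the other mice (432 to 536). Nos2, the inducible nitric oxide synthase, was at 18.4 and 65.1, both below the other mice (118 to 205). The 9 MHC class II genes tested had a median of -0.70 and 0 were past 2-fold. The sum over all 11 listed genes, 20086 CPM in the N297A mouse, lay inside the range of the other mice (16855 to 26241), and the Untreated mouse at 30610 lay above it. Other lists also differed in these monocytes. The 10 macrophage markers had a median of -0.38 and summed to 11223 CPM against 14167 (8940 to 14189 in the others). The 10 monocyte markers summed to 6703 against 5467 (5348 to 6345). All 13 mitochondrial transcripts were below 0 (median -0.24), and the N297A mouse was lowest of the 6 for 9. Their part in the values above was not tested.

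In dendritic cells 4 of 13 response genes were past 2-fold lower, beside 1.38% of all genes. Iigp1 was at 304 and 850 CPM (448 to 612 in the others), the feedback inhibitor Socs1 at 84.1 and 222 (186 to 245), Cxcl9 at 550 and 1326 (416 to 861) and Cxcl10 at 347 and 790 (449 to 650). MHC class II genes had a median of 0.13 in dendritic cells, with Cd74 at 13770 and 13830 CPM. CD8 T cells and NK cells had response medians of 0.21 and 0.04. In CD8 T cells 2 of 12 genes were past 2-fold higher and 0 lower, beside 1.97% and 1.2% of all genes. In NK cells 0 of 11 were higher and 1 was lower, beside 0.522% and 0.404%.

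The lower response was spread over clusters. Within clusters that had at least 20 cells in both mice, the summed response genes were lower in the N297A mouse in 16 of 16 macrophage clusters (log2 -1.79 to -0.59). The same held in 9 of 9 monocyte clusters (-1.32 to -0.16). MHC class II sums were lower in 16 of 16 macrophage clusters (-1.24 to -0.31) and 8 of 9 monocyte clusters. In the 1 dendritic cluster with enough cells, cDC2 cluster 36, the response sum was lower (-0.76) but the MHC class II sum higher (0.22). With clusters weighted equally in both mice the macrophage medians were -1.18 for response genes and -1.01 for MHC class II. All clusters came from the same N297A mouse and the same Untreated mouse, so they are not separate readings of treatment.

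The level of Ifng itself was read in the same mice. Over all cells it was at 14.9 CPM for N297A and 22.98 CPM for Untreated (12.9 to 26.8 in the others). Of these UMIs CD8 T cells held 252 of 317 and 447 of 516. Among CD8 T cells Ifng was at 436 and 326 CPM, but 150 of the 252 UMIs in the N297A mouse were in 1 of 67 cells. NK cells held 40.6 and 37.1 CPM, below the other mice (47.8 to 77.9). CD8 T cells were 3.74% of cells in this N297A mouse and 7.47% in this Untreated mouse. In library 1 they were 14.8% and 7.67% against 13.4% and 5.38%, and expression there was not analysed here. The part of the CD8 share in the response genes was not tested, and with 1 mouse a side mouse and treatment cannot be told apart.

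Type I interferon genes are induced through a different receptor. The macrophage median was -0.34 with 0 of 15 past 2-fold; 1 gene was above 0, and the Untreated mouse was highest of the 6 mice for 12 of 15. In monocytes it was 0.18, and the N297A mouse was highest of the 6 mice for 11 of 15 genes; Rsad2 was at 774 and 518 CPM and Ifit3 at 430 and 312. In CD8 T cells the median was 0.61, again with the N297A mouse highest for 11 of 13 genes and 2 past 2-fold (1.97% of all genes were); Usp18 was at 156 and 76.6 CPM and Ifit3 at 215 and 107. With equal cluster weights the CD8 median was 0.40 and the monocyte median 0.08.

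Other myeloid lists lay closer to 0. Glycolysis and hypoxia genes were above 0 for 15 of 16 in macrophages, with a median of 0.40 and 0 past 2-fold; equal cluster weights left 0.20. Proliferation genes were above 0 for 19 of 20 (median 0.31), and 0.07 with equal weights. Genes past 2-fold higher in macrophages included Nt5e, which encodes the ectonucleotidase CD73 (47.5 and 18.3 CPM, 20.3 to 56.9 in the others). The migration receptor Gpr183 was at 92.9 and 40.4 (36.4 to 71.2), and Rapgef5 at 48.6 and 20.1. Fibronectin, Fn1, was at 53.1 and 17.3 CPM, but at up to 199 in another mouse, and the chemokine Ccl8 at 20.5 and 71.2. In monocytes the secreted phosphoprotein Spp1 was at 184 and 66.3 CPM (50.2 to 220), Nt5e at 64.3 and 29.0, and Plau, the urokinase, at 61.9 and 29.8 (27.3 to 42.5). Slc7a2, an arginine transporter, was at 8.36 and 36.5 and the growth factor Nrg1 at 52.6 and 170 (153 to 379). Klrb1b, a leading gene of monocyte cluster 18, was at 21.8 and 72.3.

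In CD8 T cells the effector lists did not point one way. Of 11 cytotoxicity genes tested 2 were past 2-fold lower (1.2% of all genes were) and 1 higher (1.97%), with 4 above 0 and a median of -0.28. All 12 listed genes summed to 4258 CPM against 6272, with the other mice at 7088 to 10512, so both mice lay below the rest. Effector cytokine genes had a median of 0.32, with 5 of 7 above 0 and 1 past 2-fold higher. The 11 listed summed to 5098 CPM against 3806 (3407 to 5586 in the others). Inflammatory cytokine and chemokine genes were above 0 for 6 of 7, and the 17 listed summed to 4184 CPM against 3050 (2797 to 3686). This list shares Tnf, Ccl3, Ccl4 and Ccl5 with the effector cytokines, so they are not separate readings. The pore-forming Prf1 was at 270 and 556 CPM (488 to 640) and the granzyme Gzmf at 191 and 511 (405 to 2414). Serpine2 was at 32.9 and 130 (66.6 to 163). Glycolysis genes had a median of -0.38, with the N297A mouse lowest for 10 of 15; Hilpda was at 111 and 272 CPM. Bach2, a repressor of effector differentiation, was at 310 and 137 (103 to 219). The naive and memory list that holds Bach2 had a median of 0.55, and 0.18 with equal cluster weights. Cluster 23, led by genes of naive and memory cells, was 25.4% of CD8 T cells in this N297A mouse and 13.6% in this Untreated mouse. The part of this cluster in the Bach2 values was not tested. The highest ratios rested on few cells. Ccr7, the lymph node homing receptor, had 44 UMIs in 9 of 67 cells, 24 of them in 1 cell, against 10 UMIs in 6 of 132 cells. Areg had 49 UMIs in 5 cells, 35 of them in 1. Sh3rf1 had 22 of 40 UMIs in 1 cell. The interferon gene Oasl2 was spread over 17 cells (58.9 and 14.6 CPM). Polr3f, among the lowest, had 3 UMIs against 28 (log2 -1.78, counting interval -4.34 to -0.28). The 8 CD8 markers summed to 5372 and 7615 CPM (5577 to 6395 in the others). The 10 macrophage markers summed to 852 and 507 in these CD8 cells (481 to 1352). The part of either in the values above was not tested.

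In NK cells the granzymes Gzme and Gzmd were at 25.2 and 83.1 CPM and at 104 and 267 CPM. Both mice lay far below the other 4, which held 284 to 793 and 760 to 1485. Few cells carried these UMIs: 1 cell held 74 of 128 Gzmd UMIs in the N297A mouse and 1 held 125 of 302 in the Untreated mouse, and 1 cell held 19 of 31 and 24 of 94 Gzme UMIs. The NK receptor list had 0 of 12 genes past 2-fold (median -0.05). Single cells made several high ratios: Gzmg had 51 of 53 UMIs in 1 cell against 2 UMIs (log2 4.30, counting interval 2.68 to 7.69), and Gadd45g 109 of 134 in 1 cell. Pf4 had 43 UMIs against 0, at least 13.2-fold higher when 3 counts are allowed in the Untreated mouse, with 33 in 1 cell. The 10 macrophage markers summed to 854 CPM in these N297A NK cells and 450 in the Untreated ones (309 to 810), and their part was not tested. Psat1, of serine synthesis, was at 27.6 and 8.84 CPM, with the others at 27.5 to 38.9.

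In dendritic cells the genes furthest above the Untreated mouse were those of pDC, which numbered 6 and 2 cells there. Siglech, a defining pDC lectin, was at 173 and 24.2 CPM. Klk1 had 26 UMIs against 0 (at least 9.75-fold higher) and Grm8 36 against 0 (at least 13.5-fold). Fcrla had 19 against 2 (log2 3.13, counting interval 1.37 to 6.56). Lower were the kinase Plk2 (5.17 and 37.96 CPM), the chemoattractant receptor Gpr33 (11.6 and 58.7) and Plet1 (36.2 and 142; 189 to 333 in the others). The CCR4 ligand Ccl17 was at 38.8 and 198 CPM, with the others at 77 to 736. The metalloelastase Mmp12 had 30 of its 36 Untreated UMIs in 1 cell. Costimulation genes had a median of 0.31 with 0 of 6 past 2-fold, and maturation genes 0.20 with 0 of 13 higher and 1 lower. In mregDC of the N297A mouse 1 of 10 cells held 22 Ctla4 UMIs, all of those seen, and 43 of 46 Tnfrsf4 UMIs were likewise in 1 cell.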

How the data were processed

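CD45-sorted MC38 tumour cells of 12 mice were hashed and read in 2 droplet libraries, per the labels. The deposited values are raw UMI counts per feature and barcode, made by the authors with Cell Ranger (version 9.0.0 in the file headers) against GRCh38 and GRCm39, per the submitters' processing notes. A deposited table gives treatment, type and cluster per cell. The sources used here do not state the rule behind these labels or any removal of doublets, and none was added. Library 1 counts were not analysed here, so its mice rest on barcode runs alone.

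Cells per cluster and type were tested with edgeR 4.0.16 (quasi-likelihood, treatment and library, total cells as offset, no dispersion trend, robust; adjusted p under 0.05 by Benjamini-Hochberg over all clusters or types) in 1 fit of 12 mice. Single values were tested by exact two-sided permutation over 6 mice. Tested on simulated counts, the cluster test missed most changes of 1.5-fold and 2-fold. It recovered 1.67% and 24.4% of these, and 94.4% of 4-fold changes. Beside strong changes in several clusters it made more false calls than its threshold allows. This was simulated for N297A against Untreated over clusters, not for the type-level calls of the Fc-enhanced antibodies. Every simulated cluster was given the same dispersion, so recovery in clusters that vary more between mice was not measured. Expression ratios used summed UMIs, CPM over mouse features, a prior of 0.5 UMIs and exact conditional binomial intervals at 95% confidence, for genes with a mean of at least 20 CPM over library 2 and 20 UMIs in both mice together. Tsix, Y-linked genes, receptor segments and unnamed gene models were not named, and Xist only to compare mice.

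Named were the 6 highest and 6 lowest clusters, all T cell clusters, up to 5 genes a direction per class past 2-fold and past both same-treatment pairs, and up to 4 genes per list with the largest ratios; not every gene so selected is named. Monocyte clusters 0 and 49, Ccr7, Ctla4, Tnfrsf4 and Ikzf2 were picked once their values were known. The members, lists and tests were chosen with earlier results of these data known. Alternatives were DESeq2 1.42.0, limma 3.58.1, TMM factors, 6 mice only, no library term, library 1 only, a minimum of 10 cells, each mouse left out, other CPM minimums, equal cells or cluster weights per mouse, and cells without the 1% with most UMIs.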

Additional observations from a re-analysis of the deposited data

How the results depend on the processing

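The alternatives tried for clusters, types and clusters within types called 0 in each case, as did leaving out any 1 of the 6 mice. The Treg difference kept its sign, at 0.37 to 0.93 with 1 mouse left out, as did CD8 T cells per Treg (-0.999 to -0.239). With 1 mouse left out, Tregs per 100 CD4 and Treg cells differed by -3.96 to 7.62 and lymphoid percent by -2.67 to 4.05. Signs turned in the same way for clusters 33 and 23, which differed by -0.34 and 0.42 over all mice. Cluster 33 ranged from -0.81 to 0.040 and cluster 23 from -0.081 to 0.66. They also turned for cluster 44 (-0.75 to 0.15), cluster 38 (-0.75 to 0.29) and cluster 16 (-0.50 to 0.24). Types whose signs turned were type CD8 (-0.56 to 0.18), type Macrophages (-0.11 to 0.031), type Monocytes (-0.18 to 0.19), type NK (-0.22 to 0.11) and type cDC1 (-0.20 to 0.23). In library 1 only, cluster 44 was at 0.069, cluster 38 at 0.48, cluster 16 at 0.26, type CD8 at 0.26 and type Macrophages at 0.042. Without the library term cluster 16 was at 0.00084. Type Monocytes was at 0.0062 over 6 mice only, 0.018 with TMM factors, 0.011 without the library term and 0.014 with limma.

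Clusters whose mice did not overlap numbered 4, but 7 as shares of their own type and 8 to 11 with 1 mouse left out, where fewer mice overlap more rarely. Genes past 2-fold at CPM minimums of 50 and 5 numbered 33 and 111 in macrophages (55 at 20), 19 and 110 in monocytes (32), 44 and 451 in CD8 T cells (193), 16 and 276 in NK cells (55) and 55 and 412 in dendritic cells (205). Equal cells gave 292 in CD8 T cells; equal cluster weights gave 20 in monocytes and 107 in NK cells. Mmp12 in macrophages turned to -0.11, Atp1b1 in dendritic cells to -0.60 and Fcrla in dendritic cells to -0.56 with equal cluster weights, and Ccl7 in NK cells to -0.47 with equal cells. For these the cause was not tested, except that the pDC cluster had too few Untreated cells to enter the cluster weights. TMM factors were not run within types, and Tregs fell under the minimum of 10 cells. No paired analysis was possible because the labels give the groups no shared replicate numbers. Cell number limits pDC most (1 to 7 cells a mouse), then cDC1 (6 to 10), mregDC (6 to 13), CD4 T cells (8 to 19) and Tregs (8 to 24).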
